A study of Mus musculus with 4 samples.

Results

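The data described here are the levels of 10 genes that mark neutrophils and the stages of their maturation, in RNA from the spinal cord of mice with experimental autoimmune encephalomyelitis (EAE), a model of multiple sclerosis in which immune cells enter the central nervous system. The 10 genes were chosen by symbol from the 32246 genes of the deposited expression table, and each matched 1 row. They fall into 3 classes, the primary granule genes Mpo and Elane, the secondary granule genes Ngp, Camp, Ltf and Mmp8, and the genes of mature neutrophils S100a8, S100a9, Ly6g and Retnlg. All mice were C57BL/6 with EAE. From day 8 of immunization on, every other day, 1 group was treated with a scramble micropeptide (Scr) and the other with microPEP155 (P155). There were 2 libraries in each group, labelled 4 and 5 in both, made from poly(A) RNA of cells that a Percoll gradient had enriched as mononuclear cells. The labels are silent on age, sex, dose and whether a library holds 1 animal or a pool, so the spread that p-values rest on may be technical. The libraries are called Scr-4, Scr-5, P155-4 and P155-5, and where a gene is given 4 values they follow that order.

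Neutrophils are made in the bone marrow in ordered steps, and each step transcribes its own set of granule proteins. Promyelocytes transcribe the enzymes of primary (azurophil) granules, such as myeloperoxidase. Myelocytes and metamyelocytes transcribe the antimicrobial proteins of secondary (specific) granules, such as lactoferrin. Most of this transcription ends before the cell is released, while S100a8 and S100a9 RNA stays abundant in mature cells. In EAE neutrophils are among the cells that enter the inflamed spinal cord. Neutrophils are polymorphonuclear cells, so a preparation of mononuclear cells is meant to hold few of them.

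The libraries held between 30777553 and 64702948 reads assigned to genes, with P155-5 the shallowest. The mitochondrial share of reads was 12.05% in Scr-5, while the others had 8.54% to 9.68%. RNA of the cord itself was abundant, since the myelin gene Mbp stood at 16.02 to 16.75 in all libraries. Levels are given as log2(normalized reads + 1), where normalized reads are read numbers divided by the size factor of the library, and the SD has n = 2 per group.

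A short motif of myeloid genes recurred at the starts of these genes. The windows run from 250 bases before to 50 bases after each gene's start, in RefSeq on GRCm38.p6, and all 10 genes had one. GAGGAAGT, a form of the motif bound by PU.1, the myeloid factor encoded by Spi1, was searched on both strands. It was found in 5 of the 10 genes, and by the same count in 3.69% of the 27025 genes with a window. Counted by window, it was in 6 of the 11 windows of these genes and in 3.2% of all 32851 windows, each of the same length. A second motif, TTNNGNAA, a loose form of the C/EBP site that was also searched on both strands and may overlap the former, occurred in 7 of the 10 genes and in 44.1% of all genes, or in 8 of the 11 windows and in 40.7% of all windows. The windows that hold GAGGAAGT are shown because they span all 3 classes, from the genes that varied most between libraries to those that varied least. They lie at chr11:87793534-87793833 (Mpo), chr10:79886062-79886361 (Elane), chr9:7558179-7558478 (Mmp8), chr3:90668821-90669120 (S100a8) and chr15:75155011-75155310 (Ly6g), all on the plus strand. Capitals mark the motif, which reads ACTTCCTC where it is on the other strand. A match describes the letters in the window and is no evidence of binding.
Mpo: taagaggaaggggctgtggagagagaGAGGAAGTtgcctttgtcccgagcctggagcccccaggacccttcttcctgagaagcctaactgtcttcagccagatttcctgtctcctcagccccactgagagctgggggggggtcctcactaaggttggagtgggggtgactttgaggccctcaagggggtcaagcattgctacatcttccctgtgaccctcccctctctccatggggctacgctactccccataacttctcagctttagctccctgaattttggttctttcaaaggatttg
Elane: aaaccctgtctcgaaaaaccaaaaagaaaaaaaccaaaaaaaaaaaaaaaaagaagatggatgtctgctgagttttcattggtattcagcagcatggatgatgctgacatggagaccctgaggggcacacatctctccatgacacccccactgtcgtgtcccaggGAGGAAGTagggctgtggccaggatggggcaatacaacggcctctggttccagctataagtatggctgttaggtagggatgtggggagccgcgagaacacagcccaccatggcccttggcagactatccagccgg
Mmp8: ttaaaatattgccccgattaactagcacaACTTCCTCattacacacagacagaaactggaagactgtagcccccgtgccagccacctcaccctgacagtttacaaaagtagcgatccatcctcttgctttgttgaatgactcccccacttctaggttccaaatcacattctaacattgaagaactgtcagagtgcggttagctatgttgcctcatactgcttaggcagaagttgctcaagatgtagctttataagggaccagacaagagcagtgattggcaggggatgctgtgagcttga
S100a8: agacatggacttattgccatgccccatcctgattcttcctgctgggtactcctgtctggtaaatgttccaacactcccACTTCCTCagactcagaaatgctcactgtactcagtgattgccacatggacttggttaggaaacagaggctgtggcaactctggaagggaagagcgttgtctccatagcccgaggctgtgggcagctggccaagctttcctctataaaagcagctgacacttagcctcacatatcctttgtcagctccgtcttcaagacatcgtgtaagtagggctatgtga
Ly6g: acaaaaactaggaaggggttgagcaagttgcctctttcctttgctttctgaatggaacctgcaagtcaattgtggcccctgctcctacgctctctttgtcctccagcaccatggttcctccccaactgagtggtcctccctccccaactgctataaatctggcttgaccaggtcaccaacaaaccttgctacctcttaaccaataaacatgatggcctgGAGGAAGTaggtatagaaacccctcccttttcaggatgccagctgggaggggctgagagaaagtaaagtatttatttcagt
In the Elane window the motif starts 85 bases before the RefSeq start that sets the window, and in the Mpo window 224 bases before it. For both genes this RefSeq start lies downstream of the GENCODE gene start given below. The distances therefore do not refer to the GENCODE starts. Ly6g has a second annotated start, whose window overlaps the first and holds the same motif site among its 2. The count by window is therefore not a count of separate sites. Spi1 itself stood at 10.21, 10.72, 9.98 and 9.62, an order of libraries unlike that of the genes described here.

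All 10 genes were detected in every library, and all 10 were lower on average in P155, but libraries of the same group differed so widely that no difference passed the test. Of the 27079 genes tested with limma, 53.4% were lower on average in P155. The median log2 difference of the 10 genes between P155 and Scr was -1.41, against -0.03 over all genes tested. None of the 10 passed the test, with limma adjusted p = 0.861 for each of them and unadjusted p between 0.0723 (Retnlg) and 0.278 (Ltf). Over all genes tested 0% passed adjustment, 4.35% had an unadjusted p under 0.05, and limma-voom on the recovered reads also called 0 genes. With 2 libraries against 2, an exact two-sided permutation test of 1 gene cannot give a p below 0.333. In the authors' deposited table, where 0.53% of 32246 genes had an FDR under 0.05, the FDR of the 10 genes was 0.890 for Ly6g and 0.936 for the other 9, so 0 of the 10 were called, against 0.36% of all genes called lower there.

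Together the 10 genes had a CPM (counts per 1e6 reads) of 1270 in Scr-4, 334 in Scr-5, 113 in P155-4 and 559 in P155-5. Both groups thus held 1 library with much neutrophil RNA and 1 with less, and P155-5 lay above Scr-5. In RNA from mixed cells, fewer neutrophils and less RNA per neutrophil cannot be told apart.

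**Figure D1:**
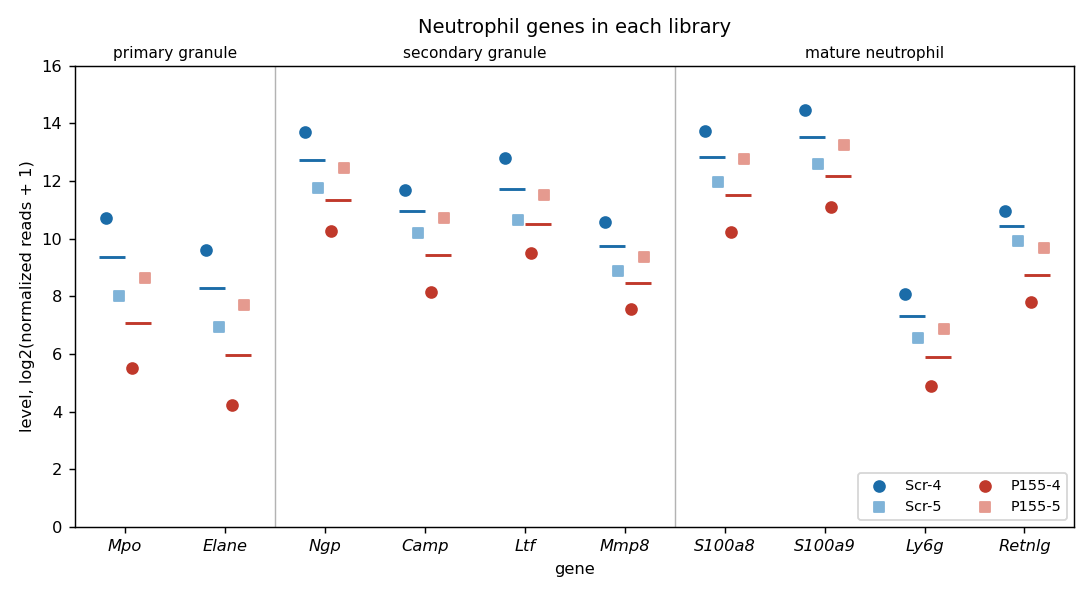
The vertical axis gives the level of each of the 10 genes as log2(normalized reads + 1), with 1 point per library and a horizontal line at each group's mean. For every gene Scr-4 is the highest point and P155-4 the lowest, and the groups overlap for all genes but Retnlg.

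The primary granule genes had the widest range. Mpo encodes myeloperoxidase, which makes hypochlorous acid from hydrogen peroxide (ENSMUSG00000009350, chromosome 11, 87793581 to 87804413, plus strand, mm10). Mpo stood at 10.73, 8.02, 5.51 and 8.63. Scr-4 was high and P155-4 low, with the libraries numbered 5 between them and the groups overlapping. The group means were 9.37 ± 1.92 (SD, n = 2) for Scr and 7.07 ± 2.20 for P155, which differed by -2.30 on the log2 scale (SE 1.38, 95% interval -5.92 to 1.32). An antisense gene, Gm11505, lies inside Mpo, and it had 4 reads in Scr-4 and 0 in the other libraries, against 2076 reads of Mpo in Scr-4.

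Elane encodes neutrophil elastase, a serine protease stored in the same granules (ENSMUSG00000020125, chromosome 10, 79886247 to 79888215, plus strand). Elane stood at 9.62, 6.93, 4.23 and 7.70. The order of the libraries was that of Mpo. Behind these levels were 960, 143, 21 and 123 reads, and the 21 reads of P155-4 have an exact Poisson 95% interval of 13 to 32.1 reads, which covers counting error only. The log2 difference between P155 and Scr was -2.31 (SE 1.47, 95% interval -6.19 to 1.58), the largest in size among the 10 genes. Linear levels in Scr-4 were 37.9 times those in P155-4 for Mpo and 44.2 times for Elane.

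The secondary granule genes kept the same order of libraries with a narrower range. Ngp encodes neutrophilic granule protein, a relative of the cathelicidins. Ngp stood at 13.71, 11.74, 10.25 and 12.46. P155-5 was again above Scr-5, so the groups overlapped, and the log2 difference was -1.37 (SE 0.98). Camp, which encodes the cathelicidin antimicrobial peptide, stood at 11.70, 10.18, 8.15 and 10.72. Its difference of -1.51 (SE 0.99, 95% interval -4.12 to 1.11) was the largest in size of this class. Ltf, which encodes the iron-binding protein lactoferrin, stood at 12.81, 10.64, 9.51 and 11.52. Its difference of -1.21 (SE 0.98) was the smallest in size of all 10 genes. Mmp8, the neutrophil collagenase gene, stood at 10.59, 8.87, 7.57 and 9.35, a difference of -1.27 (SE 0.84).

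These 4 genes lie on chromosome 9. Camp (109847379 to 109849617, minus strand), Ngp (110419747 to 110423012, plus strand) and Ltf (111019271 to 111042767, plus strand) are separated by 570129 and 596258 bases, while Mmp8 lies far from them (7558456 to 7568485, plus strand). The level in Scr-4 was 8.17 to 11.7 times that in P155-4 over the 4 genes. Within the Scr group alone, Scr-4 exceeded Scr-5 by 1.52 to 2.17 on the log2 scale, more than the difference of group means for each gene.

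The genes of mature neutrophils included the 2 RNAs most abundant per length of exon. S100a8 and S100a9 encode the subunits of calprotectin, a calcium-binding heterodimer that fills the cytosol of neutrophils, and lie 22596 bases apart on chromosome 3 (90668978 to 90670035, plus strand, and 90692632 to 90695721, minus strand). S100a8 stood at 13.73, 11.97, 10.23 and 12.76. S100a9 stood at 14.45, 12.59, 11.08 and 13.24 in the same libraries. Both genes followed the order of the granule genes, with overlapping groups, and their log2 differences were -1.35 (SE 1.03) and -1.36 (SE 0.95). Monocytes also transcribe both, so these genes are not particular to neutrophils.

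Ly6g encodes the surface protein recognised by the antibodies that define mouse neutrophils (chromosome 15, 75155240 to 75159126, plus strand). It belongs to a family of similar genes, so that reads may have been split among them, and it stood at 8.09, 6.56, 4.89 and 6.88. These were 333, 111, 34 and 69 reads, and the difference of -1.44 (SE 0.88) did not pass the test. Retnlg encodes a resistin-like protein of mature neutrophils and has near relatives in the same family (chromosome 16, 48872621 to 48874496, plus strand). Retnlg stood at 10.97, 9.92, 7.79 and 9.69. Retnlg alone of the 10 genes had no overlap between the groups, with P155 the lower, as had 19.6% of all genes tested. The gap between Scr-5 and P155-5 was 0.23, and the log2 difference of the groups was -1.70 (SE 0.73, 95% interval -3.63 to 0.23).

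Per kilobase of annotated exon, S100a9 had the highest level in every library, followed by S100a8 and Ngp in that order in all 4. The mean over libraries was 19354 normalized reads per kilobase for S100a9, 9262 for S100a8, 4837 for Ngp, 2128 for Camp, 1692 for Retnlg and 901 for Ltf. Mmp8, Elane, Mpo and Ly6g were lowest, with means of 294, 287, 175 and 135. The order of the last 4, and that of Camp and Retnlg, changed from library to library.

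The order of libraries was shared by 9 of the 10 genes. It ran from Scr-4 through P155-5 and Scr-5 down to P155-4, an order found in 1.95% of all genes tested. Scr-4 was the highest and P155-4 the lowest library for all 10 genes, which held for 3.53% of all genes tested. The genes mark cells of 1 lineage, so they are not separate observations of the libraries. The differences between same-numbered libraries therefore pointed in opposite directions. P155-4 lay 3.02 (Mmp8) to 5.39 (Elane) log2 units below Scr-4, whereas P155-5 lay above Scr-5 for 9 genes, by up to 0.88 (Ltf). Over all genes tested the medians of these differences were 0.02 and -0.04. The sources used here do not say that a number marks a shared batch or day.

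**Figure D2:**
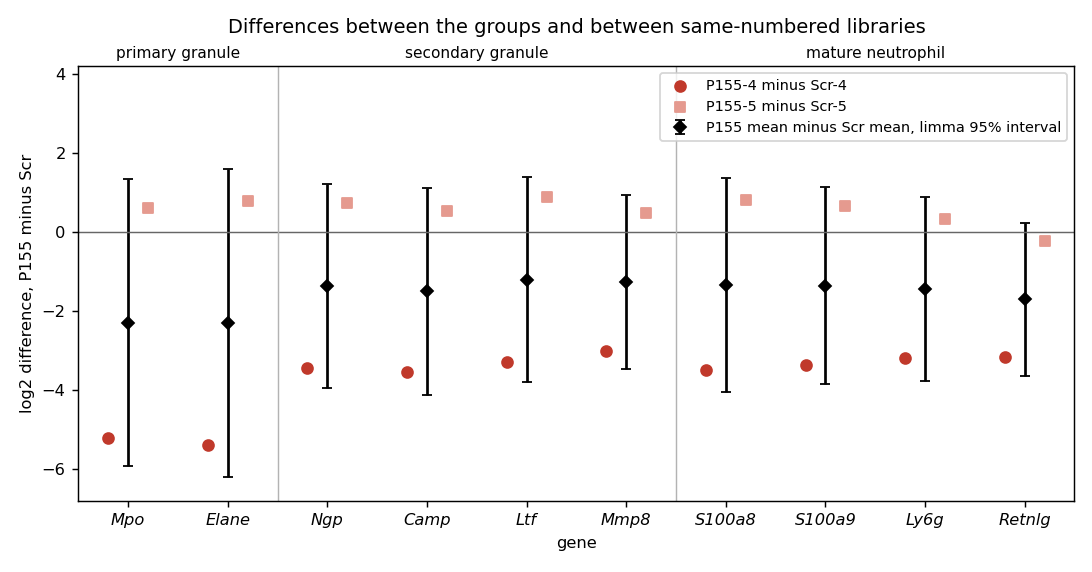
The vertical axis gives log2 differences between P155 and Scr for each gene, with black diamonds for the difference of group means, bars for its 95% interval by limma, circles for the libraries numbered 4 and squares for those numbered 5. All 10 intervals include 0, the circles lie between -5.39 and -3.02, and the squares lie above 0 for all genes but Retnlg.

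The size of the group difference rested on which libraries were included. For primary granule genes the median log2 difference was -2.30, and it was -0.95 without Scr-4, -0.65 without P155-4, -3.65 without Scr-5 and -3.95 without P155-5. For secondary granule genes the median was -1.32 with all libraries, and -0.40, -0.24, -2.28 and -2.34 with the same libraries left out in turn. For mature neutrophil genes it was -1.40, and -0.58, -0.37, -2.23 and -2.53. All medians stayed below 0. Without Scr-5 or without P155-5 this was fixed in advance, because Scr-4 was the highest and P155-4 the lowest library for all 10 genes.

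Relative to the later classes, the RNA of Mpo and Elane differed between libraries. The mean of Mpo and Elane minus the mean of the mature neutrophil genes was -1.64 in Scr-4, -2.79 in Scr-5, -3.63 in P155-4 and -2.47 in P155-5 on the log2 scale. Relative to mature neutrophil genes, Mpo and Elane were thus highest in Scr-4, which had most neutrophil RNA, and lowest in P155-4, which had least. This did not hold for all primary granule genes. Ctsg (cathepsin G) minus the same mean was -3.84, -4.57, -5.14 and -4.47, like Mpo and Elane, whereas Prtn3 (proteinase 3) minus it was -2.75, -3.46, -1.92 and -2.87, highest in P155-4. Ms4a3, a gene of early myeloid cells, was at -4.55, -4.80, -4.27 and -4.47 by this measure, also highest in P155-4. Among the other primary granule and promyelocyte genes tested, Calr, Ctsc and Serpinb1a were also highest in P155-4 by this measure, at 5.99, 3.69 and 2.29. Prss57 was highest in Scr-4, at -4.97, and lowest in P155-5, where it had 0 reads. Of all these genes, only Ctsg was highest in Scr-4 and lowest in P155-4, as Mpo and Elane were. Ctsg, Prtn3, Ms4a3, Ctsc and Serpinb1a are named after their values were seen. For the mean of Mpo and Elane minus that of the mature neutrophil genes, the groups overlapped. The mean log2 ratio was -2.21 ± 0.81 (SD, n = 2) in Scr and -3.05 ± 0.82 in P155, and this ratio has no test here. Secondary granule and mature neutrophil genes kept their ratio far more closely, at 0.39, 0.10, 0.37 and 0.37 log2 units in the same order of libraries. For single genes, Mpo minus S100a8 was -3.0, -3.95, -4.71 and -4.14, whereas Mpo minus Elane stayed between 0.92 and 1.29 and S100a8 minus S100a9 between -0.85 and -0.47.

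**Figure D3:**
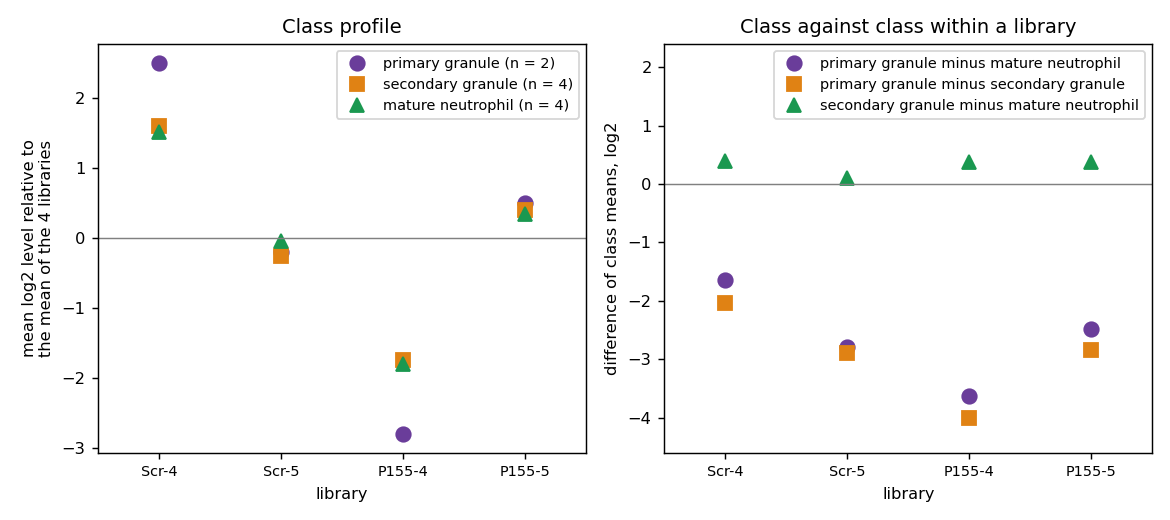
The left panel gives the mean log2 level of each class in each library, relative to the mean of the 4 libraries, and the right panel the difference between class means within a library, on the log2 scale. Primary granule genes span 2.501 to -2.80 on the left and the other classes about 1.59 to -1.80, and on the right the ratio of secondary granule to mature genes stays between 0.10 and 0.39.

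Other genes of the same classes were divided between those that followed the 10 genes and those that did not. Of 7 other primary granule and promyelocyte genes tested, 5 were lower on average in P155 (median -0.75), 0 passed adjustment with limma or in the authors' deposited table, and 3 had the order of libraries described above. Calr, which encodes the chaperone calreticulin and has the highest level of this list, stood at 14.22, 14.03, 14.48 and 14.32, with no overlap and P155 the higher, as in 15.2% of all genes tested. Prss57, a granule serine protease gene with the smallest p of the list, stood at 6.84, 4.16 and 3.48, with 0 reads in P155-5 (difference -3.76, limma adjusted p = 0.861). In level, the protease gene Ctsg stood at 7.97, 5.69, 3.36 and 6.17, like Elane, and Prtn3 at 9.06, 6.80, 6.58 and 7.77, a smaller drop to P155-4. Bpi, a bactericidal protein gene, had reads in P155-4 only and was not tested.

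Of 12 other secondary and tertiary granule genes, 11 were lower on average (median -1.02), 6 had the same order of libraries, and 4 had no overlap, with P155 the lower, as had 19.6% of all genes tested. With limma an unadjusted p under 0.05 was found for 3 of them, against 4.35% of all genes tested, and 0 passed adjustment. An FDR under 0.05 in the authors' deposited table was found for 2 of the 12, against 0.53% of all genes. These were Lcn2, with an FDR of 5.72e-06, and Adam8, a metalloprotease gene with an FDR of 0.0266 that is named after its values were seen. Lcn2, which encodes the siderophore-binding protein lipocalin-2 and is also transcribed by reactive glia, had the smallest p. It stood at 12.25, 13.18, 11.08 and 10.89, without overlap (difference -1.73, limma adjusted p = 0.861). Scr-5 was its highest library, unlike for Ltf or Ngp. Cybb, the catalytic subunit gene of the phagocyte oxidase, which macrophages and microglia also use, had the highest level, at 12.17, 12.30, 11.89 and 11.12.

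Of 17 other mature neutrophil genes tested, 14 were lower on average (median -1.19), 5 had the order described above and 9 had no overlap, with P155 the lower, against 19.6% of all genes tested. With limma 0 passed adjustment, and 4 had an unadjusted p under 0.05, against 4.35% of all genes tested. An FDR under 0.05 in the authors' deposited table was found for 3 genes of this list, against 0.53% of all genes. Among them were Csf3r, with an FDR of 0.000289, and the receptor gene Mrgpra2b, with 0.0370, which is named after its values were seen. Cd24a, the gene of a surface glycoprotein of many cell types and the most abundant of the list, stood at 13.65, 13.20, 12.69 and 13.35. The G-CSF receptor gene Csf3r, named here after its values were seen, stood at 12.10 and 12.65 in Scr and 11.32 and 11.05 in P155, and it lay in a different order from the chemokine receptor gene Cxcr2, at 8.76, 7.24, 5.43 and 7.93. Stfa3 was not analysed here, and Stfa2 and BC100530 were too low to be tested.

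Among 8 transcription factors of the lineage, 7 were lower on average (median -0.66), and 4 had no overlap, with P155 the lower, against 19.6% of all genes tested. With limma 0 passed adjustment. An FDR under 0.05 in the authors' deposited table was found for 2 of the 8, against 0.53% of all genes. These were Gfi1, with an FDR of 0.0245, and Runx1, a factor of blood stem cells and lymphocytes that is named after its values were seen, with 0.0378. Gfi1, a repressor needed for neutrophil differentiation and also active in lymphocytes, had the smallest p, at 6.87, 6.91, 4.93 and 5.49 (difference -1.68, limma adjusted p = 0.861). Cebpa, a factor of early myeloid cells that also acts in microglia, had the highest level, at 10.71, 11.40, 10.49 and 10.34. Cebpe, the factor required for secondary granules and named after its values were seen, stood at 7.09, 5.37, 4.52 and 5.64, in the order of the granule genes.

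Transcripts of neutrophil growth and recruiting factors were scarce, and apart from Ppbp they did not have the order of libraries of the neutrophil genes. Of 7 tested, 6 were lower on average (median -1.38) and 0 passed adjustment with limma or in the authors' deposited table, but Csf2, Il17a, Cxcl2 and Cxcl3 were at 0 reads in at least 1 library, and Csf3 was not analysed here. Cxcl1, a main ligand of Cxcr2, named after its values were seen, stood at 5.14, 5.74, 5.97 and 5.78. Cxcl3, with the smallest p, stood at 3.32, 2.13, 1.43 and 0. Ppbp, the most abundant of the list, is also a platelet gene, and it stood at 9.51, 7.61, 5.31 and 8.14, in the order of the neutrophil genes.

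The genes whose profile over the 4 libraries lay closest to the mean profile of the 10 were not all neutrophil genes. The measure was the root mean square distance between log2 values centred on their mean, over genes with a mean of at least 20 normalized reads, and it was at most 0.60 for the 10 genes themselves and 1.37 at the median of all candidates. Over 4 libraries, the 6 nearest were Ear1, an eosinophil ribonuclease gene (distance 0.15), Klf1, an erythroid transcription factor (0.17), Cxcr2 (0.19), Padi4, the enzyme that citrullinates histones in neutrophils (0.20), Slfn14 (0.20) and Ppbp (0.20). With 4 points such nearness is a description only.

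Erythroid markers had the order of libraries of the neutrophil genes, and so did some markers of platelets, eosinophils and bone-forming cells. All 9 erythroid markers tested had the order of libraries of the granule genes, and their summed level was 102898 to 159862 normalized reads in the Scr libraries and 51628 to 141267 in the P155 libraries, with no marker at 0. The globin gene Hbb-bs stood at 15.55, 15.01, 14.24 and 15.51, and Klf1 at 7.58, 5.22, 3.58 and 5.91. Of 7 platelet and megakaryocyte markers 2 had that order and 4 had the same highest and lowest library, with summed levels of 1559 to 2131 in Scr and 607 to 1111 in P155, and Itga2b, the gene of a platelet integrin, at 9.26, 8.80, 7.73 and 8.48. Of 5 eosinophil markers 3 had it, with sums of 553 to 1335 in Scr and 424 to 729 in P155. Prg2, the gene of eosinophil major basic protein, stood at 9.68, 7.39, 6.59 and 8.65, and Prg3 at 5.52, 3.24, 2.38 and 3.68. P155 was lower without overlap for 5 of the 7 platelet markers, 0 erythroid and 0 eosinophil markers, against 19.6% of genes tested.

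Of 6 genes of bone-forming cells, 2 had the same order and 3 the same highest and lowest library, and their sums were 802 to 2180 in Scr and 620 to 1075 in P155. Bglap2, an osteocalcin gene, stood at 8.68, 6.25, 3.24 and 6.23, a range like that of Elane. Ibsp, the gene of bone sialoprotein, named after its values were seen, stood at 8.99, 5.69, 4.23 and 6.44. Dmp1, a bone matrix gene with the highest level of the list, did not follow them, at 8.93, 8.43, 8.79 and 9.24. The 7 early B lineage markers, which developing B cells of the marrow transcribe, did not have that order in any case (0 of 7, with 2 sharing the highest and lowest library) and had sums of 192 to 215 in Scr and 59.03 to 184 in P155, with Rag1 at 6.42, 4.85, 4.67 and 6.44 and Dntt at 5.21, 6.10, 3.94 and 3.48. Igll1, Rag2, Vpreb1 and Vpreb2 were at 0 reads in at least 1 library. P155 was lower without overlap for 4 early B lineage markers and 2 genes of bone-forming cells, against 19.6% of genes tested. The part of blood, marrow or bone RNA in the neutrophil values was not tested.

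Markers of other infiltrating and resident cells, apart from 1 monocyte marker, did not have that order. Of 6 T cell, 6 mature B cell, 7 microglia, 6 neuron and 5 oligodendrocyte markers 0 had it, and of 6 monocyte markers 1 had it. P155 was lower without overlap for 4 T cell, 5 mature B cell, 4 microglia and 4 monocyte markers, against 19.6% of genes tested. P155 was higher without overlap for 3 neuron markers and 1 oligodendrocyte marker, against 15.2% of genes tested. The authors' deposited table had an FDR under 0.05 for 2 mature B cell and 2 monocyte markers, against 0.53% of all genes. Lower levels in P155 without overlap were thus not particular to the neutrophil lists. Sums of T cell markers were 1183 to 2366 in Scr and 704 to 1109 in P155, highest in Scr-5, with Cd4 at 8.03, 9.09, 8.13 and 7.65 and Cd3g at 8.22, 9.23, 7.89 and 7.36. Mature B cell sums were 1556 to 2581 in Scr and 568 to 964 in P155, with Cd79a at 8.85, 9.46, 7.05 and 8.06 and Ms4a1 at 7.81, 8.23, 6.50 and 6.98. Monocyte sums were 15683 to 16349 in Scr and 11703 to 16592 in P155, with F13a1 at 10.50, 10.60, 9.70 and 9.80 and Fn1 at 13.34, 13.24, 13.62 and 12.95. The microglia gene Gpr34 stood at 10.18, 10.59, 9.74 and 9.80. The neuron genes Snap25, at 16.74, 16.78, 17.03 and 16.86, and Eno2, at 14.67, 14.63, 15.04 and 15.12, and the myelin gene Mbp, at 16.69, 16.02, 16.75 and 16.46, spanned less than 1 log2 unit.

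**Figure D4:**
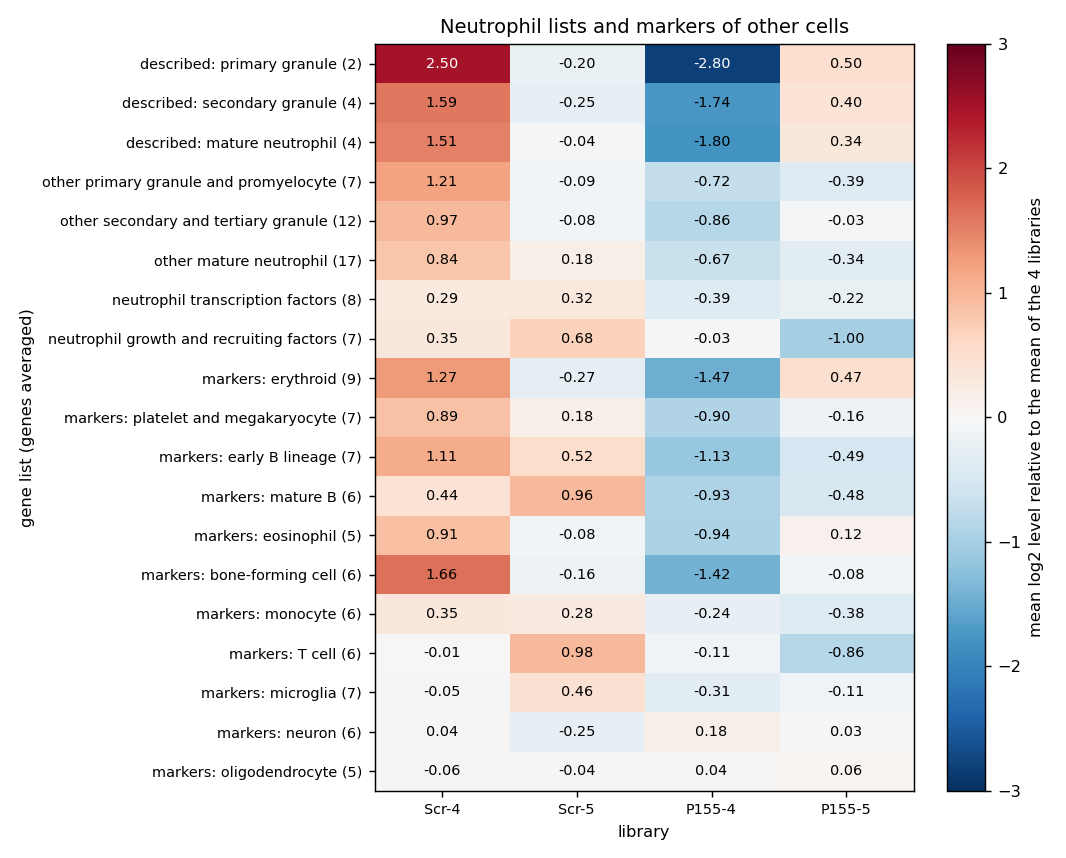
Each cell gives the mean log2 level of a gene list in a library relative to its mean over the 4 libraries, with the number of genes tested in brackets. The 3 neutrophil classes at the top, at 1.51 to 2.501 in Scr-4 and -2.80 to -1.74 in P155-4, are shown above the marker lists. In the same libraries erythroid markers are at 1.27 and -1.47, and bone-forming markers at 1.66 and -1.42. T cell markers are highest in Scr-5, at 0.98.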

How the data were processed

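RNA of spinal cord cells from 4 libraries was measured by poly(A) RNA sequencing. The submitters' processing notes name bcl2fastq, STAR 2.5.3a and DESeq2, with mm10 as the build. Read counter, annotation release, strand setting and filters are not given in the sources. The authors deposited log2 values for each library, and a p-value and FDR of their own comparison, whose test is not named. The log2 and the added 1 were undone, and each value was divided by the smallest value above 0 in its library. This takes that smallest value to be 1 read. It gave whole reads for 100% of values within a tolerance of 1e-06, from which read numbers were taken. A lower depth, as in P155-5, gives more counting error.

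P155 was set against Scr with limma 3.58.1 (R 4.3.3), fitted to log2(value + 1) with a trended prior variance. Two-sided p-values were adjusted by the Benjamini-Hochberg method over 27079 genes, those reaching a value of 1 in at least 2 libraries, and 0.05 was the threshold. On this scale low genes show too small a fold change. Alternatives were a block for the number, each library left out (a lone library is then assumed to vary like the other group), scaling by library size or TMM, no filter, a mean of at least 50, a pseudocount of 0.1, limma-voom, a robust prior and a threshold of 0.1.

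The genes and lists were chosen with earlier results of these data known. From each list the most abundant gene and the one with the smallest p were named, with the 6 genes most alike in profile, leaving out predicted genes, clones and receptor segments. A few genes that this rule names are not reported here. Gene coordinates and exon lengths are from GENCODE M21 and promoter sequences from RefSeq, both on the build of the deposited data.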

Additional observations from a re-analysis of the deposited data

How the results depend on the processing

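The count of genes that passed adjustment over all genes was 0 with every alternative except leaving out a library, where it ranged from 0 to 6. The 6 genes were found without P155-4, and none of the 10 neutrophil genes was among them; the cause was not tested. The lowest adjusted p of a neutrophil gene over the alternatives was 0.661, for Retnlg. All 10 log2 differences kept their direction with all 12 alternatives, between -4.05 and -0.57 for Elane and between -2.62 and -0.08 for S100a8. The block, the 2 filter settings and the robust prior cannot change a difference of group means here. Their agreement in direction was therefore fixed in advance, and only the other alternatives could move the differences. Scr-4 was the highest and P155-4 the lowest library for all 10 genes. Leaving out the other library of either group could therefore change the size but not the direction. Scaling by library size or TMM shifted differences by a median of only 0.012 and 0.006 log2 units. The direction was thus put to a test mainly by leaving out Scr-4 or P155-4, and it held for all 10 genes. With the replicate number as a block, 0 genes passed and 1195 had an unadjusted p under 0.05, against 1179 without it. Deviations of same-numbered libraries from their group means had a correlation of 0.07 across genes. This single value cannot show whether some genes share a batch or day by number. The numbers are not taken to pair the libraries, because the sources do not say that they do. Counting error was largest for Elane, Mpo and Ly6g, with 21, 53 and 34 reads in P155-4, although P155-4 was not the shallowest library.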

Other observations

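Erythroid and bone-forming genes differed among themselves in range, a split noticed after their values were seen and given here as a description. The 4 globin genes Hba-a1, Hba-a2, Hbb-bs and Hbb-bt, whose RNA is abundant in circulating reticulocytes, lay 1.31 to 1.77 log2 units higher in Scr-4 than in P155-4. The 3 genes Slc4a1, Klf1 and Hemgn, which erythroid precursors transcribe, lay 4.00 to 4.16 units higher. The osteocalcin genes Bglap and Bglap2 and the bone sialoprotein gene Ibsp lay 4.76 to 5.52 units higher, beside 5.21 for Mpo and 5.39 for Elane. The other 3 bone-forming genes, Dmp1, Phex and Sp7, lay only 0.14 to 1.99 units higher. Between P155-5 and Scr-5 the globin genes differed by 0.37 to 0.53, the other 3 erythroid genes by 0.69 to 1.22, the osteocalcin and bone sialoprotein genes by -0.02 to 0.75 and the other bone-forming genes by -0.98 to 0.80.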
